A study of Saccharomyces cerevisiae with 24 samples.

Results

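Messenger RNA levels of 10 yeast genes for cochaperones, the helper proteins of the Hsp70 and Hsp90 chaperones, were followed through a heat shock. The genes were taken by name, with earlier results of these data known. They are YDJ1, SIS1, APJ1, FES1, STI1, CNS1, CPR6, AHA1, HCH1 and SBA1, 10 of 5449 genes with a probe set on the array. All 10 passed the filter on dim signals that left 5395 genes, and each had 1 probe set. The data are 24 Affymetrix Yeast 2.0 oligonucleotide arrays, and biotin-labelled cRNA for each was made from 5 ug of total RNA. The Saccharomyces cerevisiae strains were deletions of pbf1, of pbf2 and of both genes (double deletion), and BY4741, a haploid laboratory strain, as the wild type. Each strain was grown at 25 °C as 3 cultures, and each culture gave a sample after 20 min at 37 °C and a sample at 0 min, so the 8 groups of strain and time hold 3 arrays each. PBF1 (TOD6) and PBF2 (DOT6) are Myb-family DNA-binding proteins that repress many ribosome biogenesis genes through the PAC promoter element. The comparisons address how the heat shock response depends on them.

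Hsp70 binds unfolded segments of proteins in a cycle driven by ATP. J proteins (Hsp40) deliver substrates and trigger ATP hydrolysis, and nucleotide exchange factors release the ADP that is left. Hsp90 takes over many partly folded clients from Hsp70, and its cochaperones bridge the chaperones, speed or slow the ATPase of Hsp90, or stabilise one of its conformations. In yeast, many chaperone genes are induced by heat through the transcription factor Hsf1, and others through Msn2 and Msn4. FES1 is an exchange factor of Hsp70 and is neither a J protein nor an Hsp90 cochaperone.

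The deleted genes were low in the strains labelled as lacking them, although 1 DOT6 value there was above background. The signal of TOD6 was 0.336 to 8.09 on the 12 arrays of the pbf1 and double deletions, with 0 above background, against 111.7 to 601.7 on the other 12. The signal of DOT6 was 0.466 to 11.9 on the 12 arrays of the pbf2 and double deletions, with 1 above background, against 778.5 to 1016.6 on the other 12. URA3, an enzyme gene of uracil synthesis, had a signal of 694.8 to 1886 on the 6 arrays of the double deletion, against 0.464 to 6.90 on the 18 arrays of the other strains, so the double deletion differed from them by more than the 2 deleted genes. The effect of URA3 and that of the deletions cannot be told apart here. The labels name no clones, so each strain may stand for a single isolate.

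All 240 member values were above the background of their array. The lowest was a signal of 214.6, and the highest background was 11.6. Signals are given below as log2 values as the authors scaled them. Probe sets differ in brightness, so the level of a gene is compared only with its own level in other groups. Changes are set side by side between genes in places, and how brightness affects their size was not tested.

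**Figure D1:**
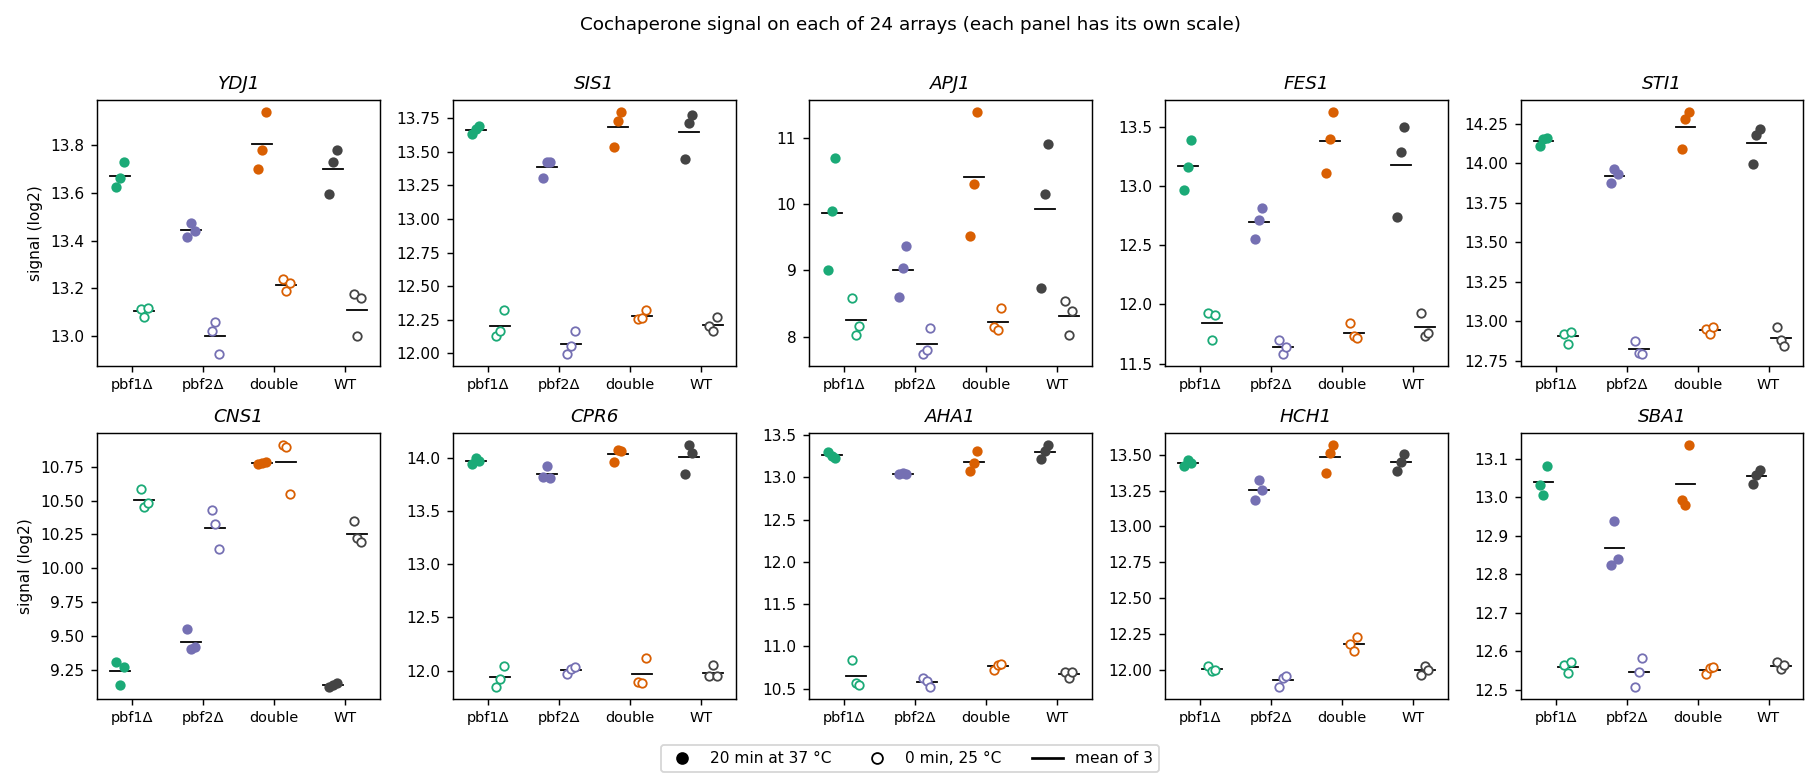
Signal (log2) of the 10 genes on each of the 24 arrays, 1 point an array, by strain, with 20 min at 37 °C (filled) left of 0 min (open) and a line at the mean of 3. In 9 panels the filled points of every strain lie above its open points, and in the CNS1 panel they lie below except in the double deletion. The share of all genes with such a separation was not computed. In the wild type 51.0% of all genes tested were called as higher after heat shock and 29.7% as lower.

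Heat shock raised 9 of the 10 genes in the wild type and lowered 1, CNS1. Over all genes tested, 51.0% rose and 29.7% fell in the wild type (limma, Benjamini-Hochberg adjusted p below 0.05). This balance holds for the scaling as deposited: 2752 genes rose and 1600 fell, against 1766 and 2020 after hybridization control centring and 313 and 2177 after spike-in centring. The same 9 rose in each deletion, where 51.2%, 48.4% and 48.5% of all genes rose in the pbf1, pbf2 and double deletion. CNS1 fell in both single deletions (background 30.4% and 30.1%) and did not pass the test in the double deletion (30.9%). The median change of the 10 genes was 1.38, 1.11, 1.35 and 1.398 (log2) in the pbf1, pbf2 and double deletion and the wild type, beside 0.27, 0.21, 0.21 and 0.27 for all genes tested.

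The first group holds the J proteins and the Hsp70 exchange factor. YDJ1 (YNL064C) encodes the most abundant J protein of the cytosol and is anchored to membranes by a farnesyl group. Its log2 signal was 13.59, 13.73 and 13.78 on the wild type 20 min arrays, against 13.18, 13.00 and 13.16 at 0 min. The groups did not overlap, although the rise was one of the smallest of the 9. Over the strains YDJ1 stood at 44.0% to 55.5% of the highest signal of its array at 0 min and at 57.0% to 72.0% at 20 min. YDJ1 rose by 0.57, 0.44, 0.59 and 0.59 ± 0.06 (log2, SE of the limma fit) in the pbf1, pbf2 and double deletion and the wild type, which is 1.504-fold in the wild type (adjusted p = 1.53e-08).

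SIS1 (YNL007C) encodes an essential J protein of the cytosol and nucleus. On the wild type 20 min arrays its log2 signal was 13.45, 13.71 and 13.77, against 12.20, 12.17 and 12.27 at 0 min. Every 20 min array lay more than 1 log2 unit above every 0 min array of the wild type. SIS1 rose by 1.46, 1.31, 1.403 and 1.43 ± 0.08 in the pbf1, pbf2 and double deletion and the wild type, 2.69-fold in the wild type (limma adjusted p = 3.85e-13).

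APJ1 (YNL077W) encodes a low-abundance J protein with a part in the turnover of aggregated proteins in the nucleus. Its log2 signal was 8.73, 10.16 and 10.90 on the wild type 20 min arrays, against 8.53, 8.03 and 8.38 at 0 min. At 20 min it was 9.00, 9.90 and 10.70 with pbf1 deleted, 8.60, 9.04 and 9.37 with pbf2 deleted and 9.53, 10.31 and 11.39 with both deleted. The 20 min arrays of each strain were far apart, yet all lay above the 0 min arrays of their strain.

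The change of APJ1 per culture ran from 0.41 to 2.55 with pbf1 deleted, from 0.85 to 1.25 with pbf2 deleted, from 1.38 to 2.96 with both deleted and from 0.20 to 2.52 in the wild type. All 12 cultures were higher at 20 min. The fitted changes were 1.61, 1.11, 2.18 and 1.62 ± 0.46 in the pbf1, pbf2 and double deletion and the wild type (limma adjusted p = 0.003, 0.0323, 0.000191 and 0.00298). In the pbf2 deletion the change was 0.88 after quantile normalization (adjusted p = 0.104), 0.91 after median centring (0.0769), 0.87 after hybridization control centring (0.0525) and 0.39 after spike-in centring (0.497). None of these passed, and neither did the change without 4 of its 6 arrays in turn (0.93 to 1.09).

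FES1 (YBR101C) encodes an exchange factor of cytosolic Hsp70. The wild type 20 min arrays gave it log2 signals of 12.74, 13.29 and 13.50, against 11.93, 11.73 and 11.76 at 0 min. At 20 min it was 12.96, 13.16 and 13.39 with pbf1 deleted, 12.55, 12.71 and 12.81 with pbf2 deleted and 13.11, 13.40 and 13.62 with both deleted. As for APJ1, the 20 min arrays were spread out and did not overlap the 0 min arrays. FES1 rose by 1.32, 1.05, 1.61 and 1.37 ± 0.15 in the pbf1, pbf2 and double deletion and the wild type, 2.58-fold in the wild type (limma adjusted p = 2.66e-08).

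The second group holds the TPR cochaperones, which bind the C-terminal tails of Hsp70 or Hsp90 through tetratricopeptide repeats. STI1 (YOR027W) encodes the scaffold that holds Hsp70 and Hsp90 together while a client is passed on. Its log2 signal was 13.99, 14.18 and 14.22 on the wild type 20 min arrays, against 12.96, 12.88 and 12.84 at 0 min. STI1 was among the brightest probe sets: at 20 min it stood at 80.0% to 94.1% of the highest signal of its array. STI1 rose by 1.24, 1.10, 1.29 and 1.23 ± 0.06 in the pbf1, pbf2 and double deletion and the wild type, 2.35-fold in the wild type (limma adjusted p = 7.75e-14).

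CPR6 (YLR216C) encodes a cyclophilin, a prolyl isomerase with a TPR domain that binds Hsp90. Log2 signals of CPR6 were 13.85, 14.12 and 14.05 on the wild type 20 min arrays, against 11.95, 12.05 and 11.95 at 0 min. The 20 min arrays stood at 74.0% to 81.5% of the highest signal of their array over the strains. CPR6 rose by 2.04, 1.84, 2.07 and 2.03 ± 0.07 in the pbf1, pbf2 and double deletion and the wild type, 4.08-fold in the wild type (limma adjusted p = 4.77e-16). How far the top of the scale limits the changes of YDJ1, STI1 and CPR6 was not tested.

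The third group acts on the ATPase cycle of Hsp90. AHA1 (YDR214W) encodes its main activator and had the largest wild type change of the 10 genes. Its log2 signal was 13.21, 13.31 and 13.38 on the wild type 20 min arrays, against 10.70, 10.62 and 10.69 at 0 min. AHA1 rose by 2.61, 2.47, 2.42 and 2.63 ± 0.07 in the pbf1, pbf2 and double deletion and the wild type, 6.20-fold in the wild type (limma adjusted p = 7.26e-18).

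HCH1 (YNL281W) encodes a smaller protein related to the N-terminal part of Aha1. Wild type cells at 20 min gave log2 signals of 13.39, 13.45 and 13.51, against 11.96, 12.03 and 12.00 at 0 min. HCH1 rose by 1.44, 1.32, 1.301 and 1.45 ± 0.05 in the pbf1, pbf2 and double deletion and the wild type, 2.73-fold in the wild type (limma adjusted p = 7.34e-16). The rise of HCH1 was thus smaller than that of AHA1 in every strain.

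SBA1 (YKL117W) encodes the yeast p23, which binds the closed, ATP-bound form of Hsp90 and slows its ATPase. The log2 signal of SBA1 was 13.03, 13.06 and 13.07 on the wild type 20 min arrays, against 12.57, 12.55 and 12.56 at 0 min. The groups did not overlap and the arrays of each agreed closely. SBA1 rose by 0.48, 0.32, 0.48 and 0.49 ± 0.05 in the pbf1, pbf2 and double deletion and the wild type, 1.41-fold in the wild type (limma adjusted p = 2.25e-09).

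The sizes of the rises, and many of their calls, depended on how the arrays were scaled. The median change of all genes in the wild type was 0.27 (log2) as deposited, 0.04 after quantile normalization, 0.09 after median centring, -0.04 after hybridization control centring and -0.74 with the poly(A) spike-in controls as the centre. SBA1 passed in no strain after hybridization control centring (0.20, 0.08, 0.21 and 0.19 in the pbf1, pbf2 and double deletion and the wild type), and under it YDJ1 did not pass in the pbf2 deletion (0.20, adjusted p = 0.0515). With spike-in centring both SBA1 and YDJ1 had negative values in all 4 strains that did not pass. The other 7 rising genes had positive values with spike-in centring, but only 8 of their 28 values in the 4 strains passed: AHA1 in 4 strains, CPR6 in 3 and APJ1 in 1. In the wild type the values were then 1.63 for AHA1, 1.02 for CPR6, 0.61 for APJ1, 0.45 for HCH1, 0.42 for SIS1, 0.37 for FES1 and 0.23 for STI1, and the last 5 did not pass (adjusted p = 0.215 to 0.638). The value of STI1 in the pbf1 deletion was 0.01. After quantile normalization, median centring and hybridization control centring these 7 passed in each strain, except APJ1 in the pbf2 deletion. CNS1 fell under all of them in the 2 single deletions and the wild type.

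The authors' deposited table holds log2 ratios of 20 min over 0 min that the authors computed with GoldenSpike. In the authors' deposited table the ratios were 2.82, 2.73, 2.68 and 2.78 for AHA1 in the pbf1, pbf2 and double deletion and the wild type. Those of YDJ1 (0.78, 0.82, 0.68 and 0.86) and SBA1 (0.82, 0.76, 0.80 and 0.82) were larger than the changes given above in every strain. The pbf2 deletion and the wild type lay close for SIS1 (1.72 and 1.74) and STI1 (1.47 and 1.49). They lay further apart for APJ1 (0.86 and 1.44) and FES1 (1.41 and 1.68). For CNS1 the authors' deposited table gave -1.28, -0.82, 0.12 and -1.21 in the same strains, so the sign for the double deletion differed from that of the change given below.

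**Figure D2:**
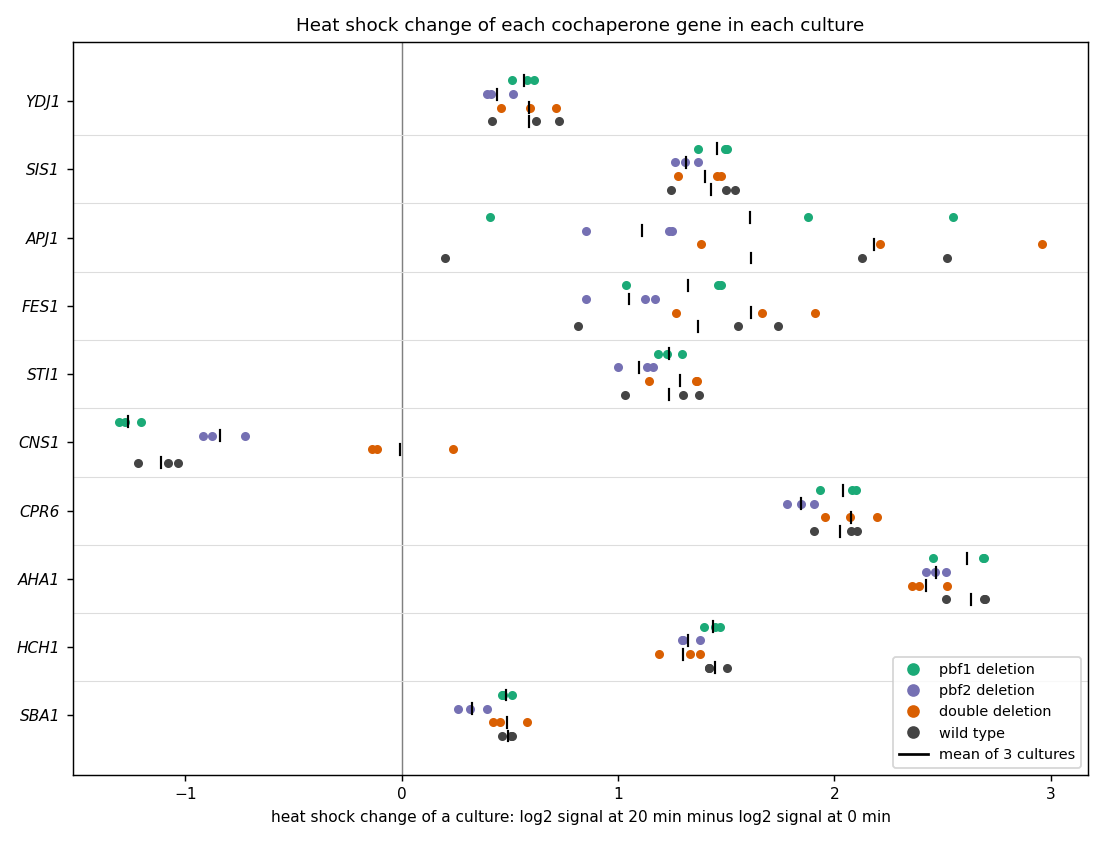
Heat shock change of each gene in each culture (log2 signal at 20 min minus 0 min), 3 points a strain with a line at their mean. CNS1 lies below 0 in all cultures of the pbf1 and pbf2 deletions and the wild type and around 0 in the double deletion, and the APJ1 points of the wild type run from 0.20 to 2.52.

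CNS1 (YBR155W) encodes an essential TPR cochaperone that binds both Hsp90 and Hsp70 and that is linked to protein synthesis in yeast. It had the largest difference of the 10 genes between a deletion strain and the wild type. Its log2 signal at 20 min was 9.31, 9.14 and 9.27 with pbf1 deleted, 9.55, 9.41 and 9.42 with pbf2 deleted, 10.77, 10.78 and 10.79 with both deleted and 9.13, 9.14 and 9.16 in the wild type. All 3 arrays of the double deletion lay above all 9 of the other strains, and the pbf1 deletion overlapped the wild type.

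At 0 min the log2 signal of CNS1 was 10.59, 10.45 and 10.48 with pbf1 deleted, 10.43, 10.32 and 10.14 with pbf2 deleted, 10.91, 10.89 and 10.55 with both deleted and 10.35, 10.22 and 10.19 in the wild type. Here too the double deletion lay above the wild type, and 1 of its arrays overlapped the pbf1 deletion.

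Ordered by their means, the CNS1 levels ran from the double deletion at 0 min (10.78 ± 0.20, SD, n = 3) and at 20 min (10.78 ± 0.01) through the pbf1 deletion (10.51 ± 0.07), the pbf2 deletion (10.30 ± 0.14) and the wild type (10.25 ± 0.08) at 0 min. The pbf2 deletion (9.46 ± 0.08), the pbf1 deletion (9.24 ± 0.09) and the wild type (9.14 ± 0.02) at 20 min followed. Neighbours whose arrays overlapped were both times of the double deletion, the pbf2 deletion and the wild type at 0 min, and the pbf1 deletion and the wild type at 20 min.

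CNS1 fell by 1.26, 0.84 and 1.11 ± 0.09 (log2, SE) in the pbf1 deletion, the pbf2 deletion and the wild type (limma adjusted p = 1.52e-11, 1.36e-08 and 1.32e-10), so its signal after heat shock was 2.16-fold lower in the wild type. In the double deletion its change was -0.01 ± 0.09, with a 95% interval of -0.19 to 0.18 (adjusted p = 0.950). Per culture the change there was -0.14, -0.12 and 0.24, of which 1 was positive, against -1.22, -1.08 and -1.03 in the wild type. Of the 4 scalings, 2 gave a fall in the double deletion that passed, median centring (-0.27, adjusted p = 0.00343) and spike-in centring (-1.15, 0.0144).

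The difference in response was tested itself. The response of CNS1 in the double deletion exceeded that in the wild type by 1.11 ± 0.12 (limma interaction contrast, adjusted p = 9.04e-07, 95% interval 0.85 to 1.36). Of all genes 27.8% were called in either direction, 809 with a higher and 689 with a lower response. The response of CNS1 was also 1.26 ± 0.12 higher than in the pbf1 deletion (limma adjusted p = 1.84e-07). The background was 24.4% in either direction, 681 genes higher and 636 lower. It was 0.83 ± 0.12 higher than in the pbf2 deletion (limma adjusted p = 6.46e-05, background 20.8% in either direction, 606 higher and 514 lower). Each of these calls passed under 21 of 22 alternatives and was lost after spike-in centring (0.96, 1.34 and 0.41 in that order, adjusted p = 1.00, 1.00 and 0.908).

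The level of CNS1 at 20 min was 3.11-fold higher in the double deletion than in wild type cells (log2 1.64 ± 0.09, limma adjusted p = 2.6e-12). CNS1 was the 1 member called here, and 53.4% of all genes were called in either direction (1130 higher and 1750 lower). At 20 min it was also higher than in the pbf1 deletion (1.54, adjusted p = 1.15e-11) and in the pbf2 deletion (1.32, adjusted p = 2.17e-10), and all 16 alternatives kept each of these 3 calls. At 0 min it was already 1.44-fold higher than in the wild type (0.53 ± 0.09, limma adjusted p = 0.000153). The background was 24.4% in either direction, 457 genes higher and 862 lower. The response difference of CNS1 thus starts from unequal levels. The call at 0 min was lost after spike-in centring (0.88, adjusted p = 0.861).

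The response of CNS1 was not called as different from the wild type in either single deletion. The difference was -0.15 in the pbf1 deletion (95% interval -0.41 to 0.10, limma adjusted p = 0.999) and 0.27 in the pbf2 deletion (95% interval 0.02 to 0.53, not adjusted for the number of genes, adjusted p = 0.295). These intervals leave room for differences, in the pbf2 deletion of up to 0.53.

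Among all genes tested, the log2 signals most like those of CNS1 over the 24 arrays were those of DPH2 (YKL191W, r = 0.988), RIO2 (YNL207W, r = 0.986) and RPC82 (YPR190C, r = 0.985). DPH2 acts in diphthamide synthesis, RIO2 encodes a kinase of 40S maturation, and RPC82 a subunit of RNA polymerase III. These are correlations across arrays of 8 groups with 3 cultures each, given as a description.

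**Figure D3:**
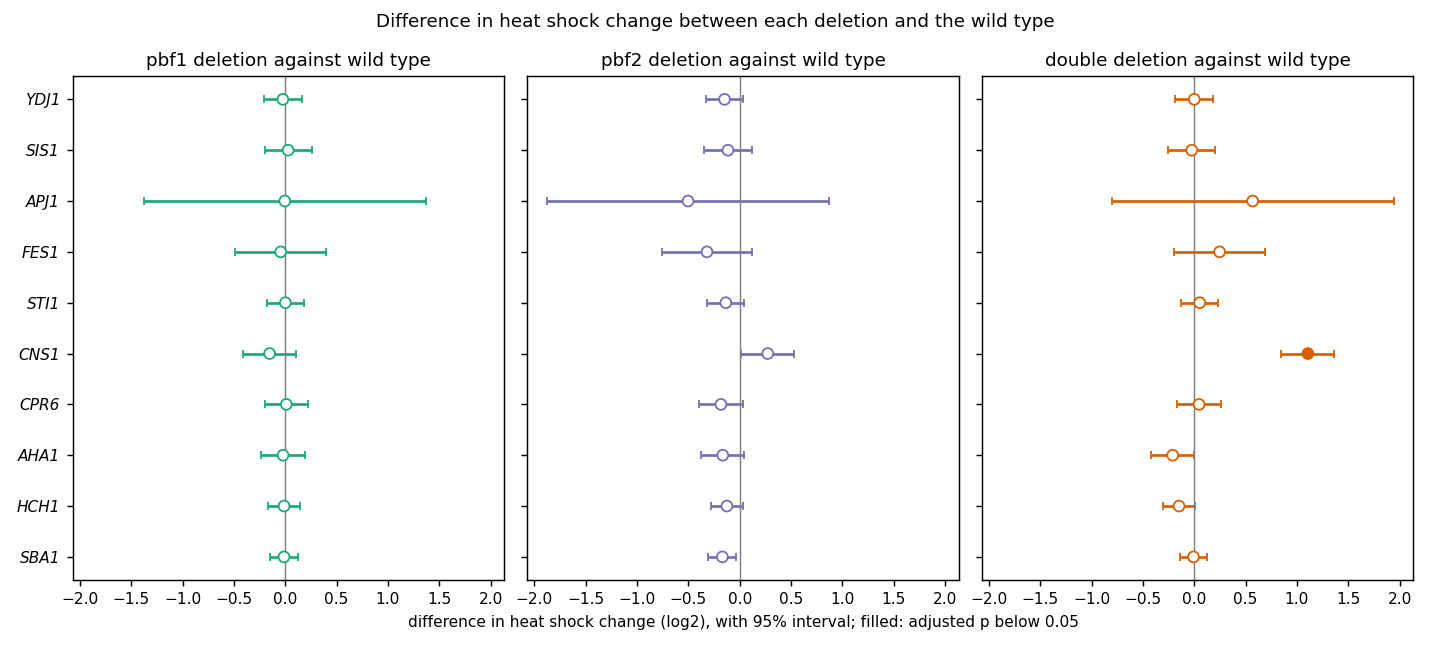
Difference in heat shock change (log2) between each deletion and the wild type for the 10 genes, with 95% intervals of the limma fit. Filled points pass the adjusted threshold: CNS1 in the double deletion (1.11) is the 1 such point, and the APJ1 intervals are the widest.

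For the other 9 genes no difference in heat shock response was called between a deletion and the wild type. In the pbf1 deletion limma called 0 members and 0% of all genes, with 0 members and 183 genes at an unadjusted p below 0.05. In the pbf2 deletion it called 0 members beside 1.71% of all genes, with 2 members at an unadjusted p below 0.05, CNS1 and SBA1 (-0.17 ± 0.06, adjusted p = 0.204). In the double deletion CNS1 was called and 9 members were not, beside 27.8% of all genes called, and AHA1 had the next lowest adjusted p (-0.21 ± 0.10, adjusted p = 0.126).

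The 95% intervals show what these arrays could have missed. For SIS1 the difference between the double deletion and the wild type lay between -0.25 and 0.21, for YDJ1 between -0.18 and 0.18, for STI1 between -0.13 and 0.23 and for SBA1 between -0.14 and 0.13. For APJ1 the interval ran from -0.81 to 1.94, which is too wide to tell the strains apart. HCH1 had a difference of -0.15 (95% interval -0.30 to 0.01, adjusted p = 0.144), and it was called after quantile normalization (-0.16, adjusted p = 0.0264) and after median centring (-0.24, adjusted p = 0.0392), which also called AHA1 (-0.30, adjusted p = 0.034).

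Before heat shock, HCH1 was the 1 member beside CNS1 that differed in the double deletion, which makes 2 of 10 members beside 24.4% of all genes. Both members were higher, whereas of all 5395 genes tested 457 were higher and 862 lower. Its log2 signal at 0 min was 12.18, 12.13 and 12.23 in the double deletion, against 11.96, 12.03 and 12.00 in the wild type, with no overlap. The arrays of 4 members, HCH1, YDJ1, AHA1 and CNS1, lay wholly above those of the wild type, as did those of 15.7% of all genes tested. The difference of HCH1 was 0.18 ± 0.05, 1.14-fold (limma adjusted p = 0.0131). It was lost after hybridization control centring (0.25, adjusted p = 0.0742), after spike-in centring, where the value was larger (0.53, adjusted p = 0.861), and when the replicate 1 array of the wild type at 0 min was left out (0.17, adjusted p = 0.0506). In the pbf1 and pbf2 deletions at 0 min limma called 0 members, beside 0.111% and 0.241% of all genes, and 1 member (CNS1) and 0 members had an unadjusted p below 0.05. In the pbf2 deletion the arrays of 4 members, SIS1, AHA1, FES1 and HCH1, still lay wholly below those of the wild type, beside 6.06% of all genes tested. In the pbf1 deletion those of 1 member, CNS1, lay wholly above, beside 5.71%.

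At 20 min the pbf2 deletion stood apart among the single deletions. Of the 10 members, 7 were lower than in the wild type, YDJ1 (-0.26), SIS1 (-0.26), STI1 (-0.21), AHA1 (-0.26), FES1 (-0.48), HCH1 (-0.19) and SBA1 (-0.19), and CNS1 was higher (0.32), with limma adjusted p-values between 0.00842 and 0.0333. Over all genes 4.62% were lower and 8.64% higher, which is 249 and 466 genes, against 420 and 402 after median centring and 18 and 311 after hybridization control centring. The 3 arrays of 6 members lay wholly below those of the wild type, as did those of 15.8% of all genes tested. The log2 signal of SBA1 was 12.82, 12.94 and 12.84 in the pbf2 deletion, against 13.03, 13.06 and 13.07 in the wild type.

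The number of calls changed with the scaling and with single arrays. All 8 calls were kept after median centring. After quantile normalization 2 were left, CNS1 (0.32) and FES1 (-0.38), and the other 6 values were then between -0.09 and 0.02. After hybridization control centring 0 were left, with YDJ1 at -0.15, FES1 at -0.37 and CNS1 at 0.43. After spike-in centring 0 were left although the values stayed near those above (YDJ1 -0.22, FES1 -0.44, CNS1 0.36). When the arrays of these 2 groups were fitted alone, 0 were left with the same differences, and the adjusted p-values of the 8 were 0.0535 to 0.148. Of the wild type 20 min arrays, leaving out replicate 1 gave 10 calls, replicate 2 gave 4 and replicate 3 gave 1. Of the pbf2 deletion arrays, leaving out replicate 1 gave 1, replicate 2 gave 5 and replicate 3 gave 5. In the pbf1 deletion at 20 min limma called 0 members beside 0.630% of all genes, and 0 had an unadjusted p below 0.05.

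The comparisons of the double deletion with the single deletions at 20 min were among the 4 added after the values were seen. Against the pbf2 deletion 9 of 10 members were higher in the double deletion (background 20.7%), all but AHA1. The same pbf2 arrays lay low against the wild type, so this is not a separate observation of their level. Of the 9, 4 remained after quantile normalization and 2 after spike-in centring. CPR6, HCH1 and SBA1 did not pass after hybridization control centring, and CPR6 did not after median centring. Against the pbf1 deletion 1 member, CNS1, was called (background 47.9% in either direction, 1075 genes higher and 1511 lower).

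Part of the spread at 20 min followed the replicate number. Of the 20 min arrays, replicate 1 was the lowest and replicate 3 the highest in all 4 strains for 3 members, APJ1, FES1 and SIS1, and in 3 strains for YDJ1 and STI1. Among all genes tested 3.15% showed this order in all 4 strains at 20 min. In 3 or 4 strains it held at 20 min for 5 members and 11.4% of all genes. At 0 min it held in all 4 strains for 0 members and 1.65% of all genes. In 3 or 4 strains it held at 0 min for 1 member, SIS1, and 6.39% of all genes. The labels do not say whether a number marks a shared day, and the order was seen first and then counted.

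The spread of APJ1 within groups at 20 min was 0.86 (log2, SD pooled over strains), wider than that of 99.6% of the genes tested, and that of FES1 was 0.26, wider than 87.7%. The median over all genes was 0.12. CNS1 (0.06) and SBA1 (0.06) were among the steadier genes at 20 min. What varied with the replicate number was not tested.

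**Figure D4:**
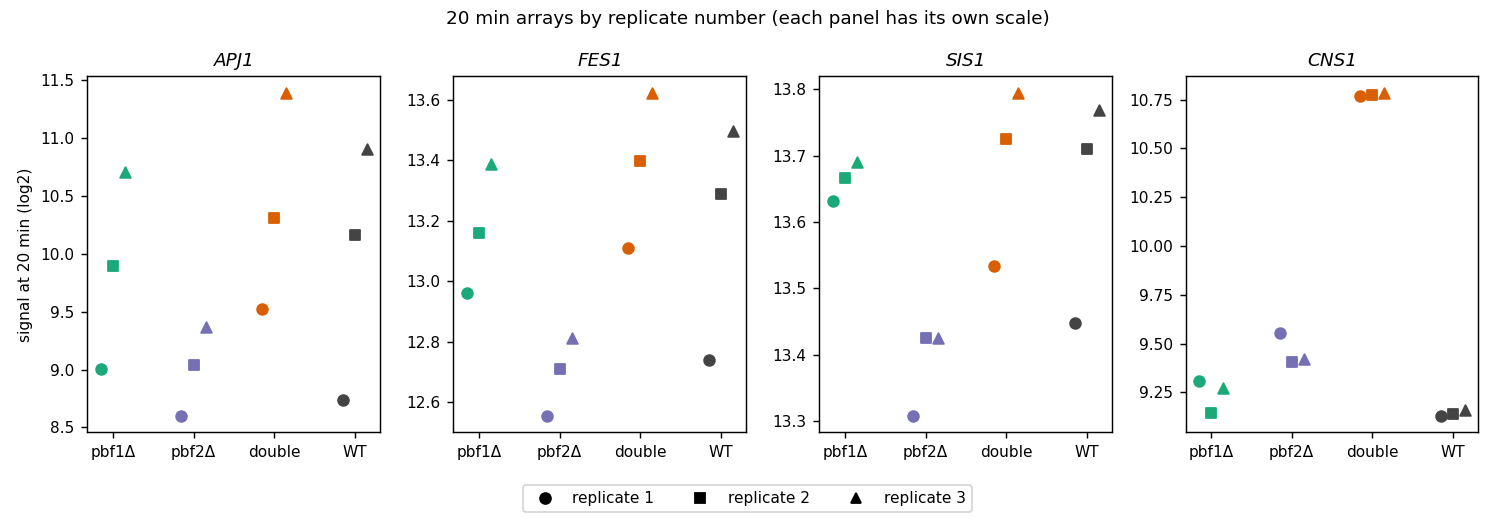
Signal (log2) of APJ1, FES1, SIS1 and CNS1 on the 20 min arrays by strain, with the marker giving the replicate number. In the first 3 panels replicate 1 is the lowest and replicate 3 the highest point of every strain, and CNS1 in the double deletion stays between 10.77 and 10.79.

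Over the 24 arrays SIS1, STI1 and HCH1 were among each other's 3 most similar genes, with r between 0.995 and 0.996. AHA1 was closest to the inducible Hsp70 genes SSA3 (r = 0.998) and SSA4 (0.996). CPR6 was closest to YBR137W (0.997), followed by HSP82, the inducible Hsp90 gene (0.997). FES1 was closest to LST8 (0.993), followed by MDJ1, the mitochondrial J protein gene (0.989), which was the closest to SBA1 (0.988). APJ1 was closest to YDL012C (0.973), followed by the J protein gene HLJ1 (0.959). The 3 genes closest to YDJ1, STE7, LST8 and SGF29 (0.977 to 0.979), are in none of the chaperone lists. The r values span both times, and r within a time was not computed.

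**Figure D5:**
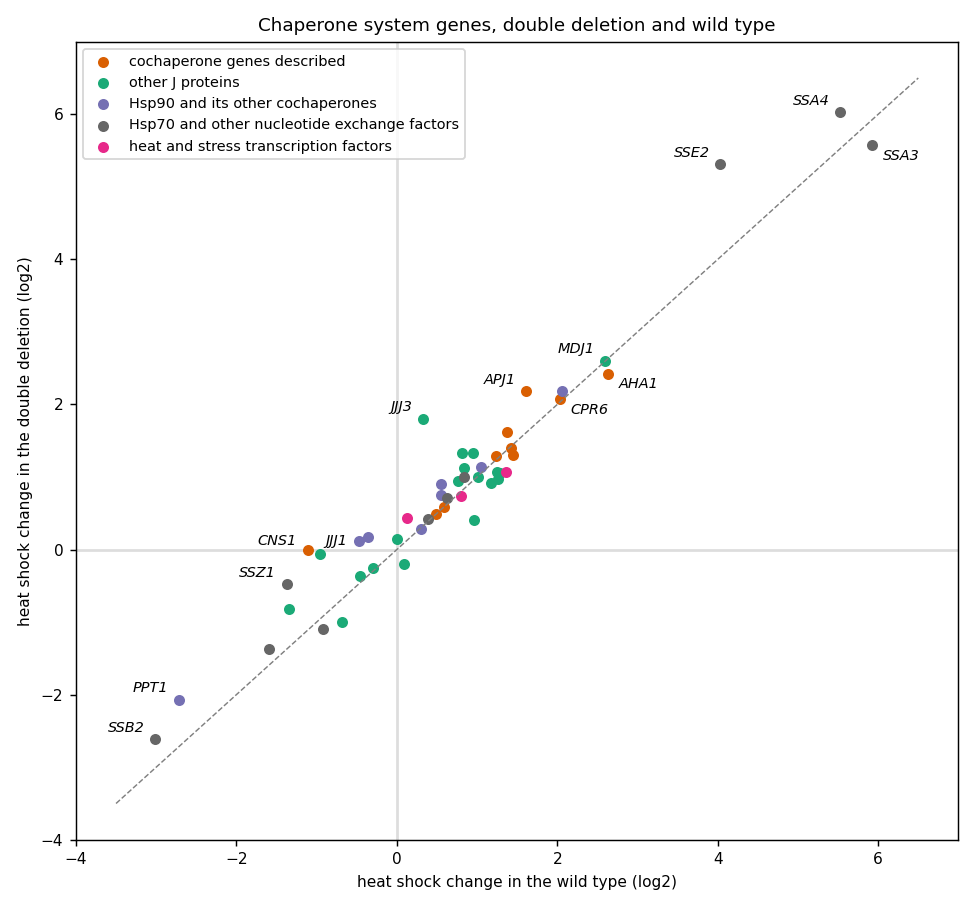
Heat shock change (log2) in the double deletion against that in the wild type for the 10 genes and 40 others of the chaperone system, 1 point a gene. CNS1, JJJ1, JJJ3, SSZ1 and SSE2, whose response differences passed the test, lie above the dashed line of equal change. The labelled PPT1 also lies above it (0.65), but its difference did not pass.

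The other genes of the chaperone system, listed by name in 4 groups, also went both ways, as did all genes tested, of which 48.4% to 51.2% rose and 29.7% to 30.9% fell by strain. Of 19 other J protein genes, 12, 11, 13 and 11 rose and 5, 4, 3 and 5 fell in the pbf1, pbf2 and double deletion and the wild type. In the wild type the largest rises were MDJ1 (2.60) and XDJ1 (1.29), and the largest falls were ZUO1 (-1.35), the ribosome-bound J protein, and JJJ1 (-0.96), which acts in late 60S maturation. Their median change was 0.81 in the wild type beside 0.27 for all genes.

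Of the 8 genes for Hsp90 and its other cochaperones, 5, 5, 6 and 5 rose and 3, 2, 1 and 3 fell in the same strains. HSP82 rose by 2.05 and CDC37, the kinase-specific cochaperone gene, by 1.05 in the wild type. PPT1, a TPR phosphatase gene, fell by 2.72 and TAH1 by 0.47. CNS1 was therefore not alone among Hsp90 cochaperone genes in falling. Of 10 genes for Hsp70 and other exchange factors, 6 rose and 4 fell in every strain, with SSA3 (5.93) and SSA4 (5.53) at the top and the ribosome-associated SSB2 (-3.01) and SSB1 (-1.60) at the bottom in the wild type. Of the 3 transcription factor genes, MSN4 (1.36) and HSF1 (0.80) rose in the wild type and MSN2 did not pass (0.13, limma adjusted p = 0.169).

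Some of these genes also differed in response between the double deletion and the wild type. Called were 5 of 19, 3 of 8, 3 of 10 and 0 of 3 in the J protein, Hsp90, Hsp70 and transcription factor lists. Of all genes 27.8% were called, 809 responding more and 689 less. Among the J proteins 4 responded more and 1 less, led by JJJ3 (1.48 ± 0.23, limma adjusted p = 6.28e-05), which acts in diphthamide synthesis, and JJJ1 (0.90), and by ERJ5 (-0.56) on the other side. Of the Hsp90 group 3 responded more, TAH1 (0.59) and CPR7 (0.53), a TPR cyclophilin gene related to CPR6, the most. Of the Hsp70 group 3 responded more, SSE2 (1.28) and SSZ1 (0.90) the most. The level of SSE2 at 0 min was lower in the double deletion (-1.06 against the wild type), and the difference at 20 min was 0.22 (limma adjusted p = 0.0773). The median response difference was 0.04, 0.27, 0.19 and -0.06 in the J protein, Hsp90, Hsp70 and transcription factor lists. It was 0.02 among the 10 cochaperone genes, beside -0.00 for all genes.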

How the data were processed

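The authors deposited 1 intensity value per probe set and array on a linear scale. MAS5 is named per the submitters' processing notes, and GeneChip Operating Software 1.4 in the authors' deposited text. The trimmed mean (2% a side) was 500.3 to 500.4 on every array. The authors' deposited table holds log2 ratios of 20 min over 0 min, computed with GoldenSpike per the same text, and false discovery rates (adjusted p-values), per the file headers. Its rates for the deletions share 1 column name and were not used.

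Of 10928 probe sets, 5498 name 1 gene of the S. cerevisiae table (R64, used for names only) and 1746 name genes outside it, which served as background. No genome build is named in the files, so no coordinates are given, and no sequences are shown. For each of 5449 genes the brightest probe set on average was used. A gene was tested (5395 were) if its mean log2 signal exceeded 2.35, which 90% of the outside probe sets did not reach. An array's background is the 95th percentile of its outside probe sets, a signal of 9.02 to 11.6, and 96.7% to 99.1% of genes were above it. The number of arrays limits the precision.

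Log2 signals of all 24 arrays were fitted as 8 group means with limma 3.58.1 in R 4.3.3 (eBayes with trend, 16 residual degrees of freedom), and two-sided p-values were adjusted by Benjamini-Hochberg over all genes tested, with a threshold of 0.05. The fit was tested on simulated data. Intervals use the t distribution with the residual degrees of freedom. There were 13 comparisons, and 4 of the double deletion with the single deletions were added after the values were seen. Python 3.11.15 and matplotlib 3.10.9 were used for summaries and plots. The members and lists were chosen with earlier results of these data known. Named were the 10 members, the deleted genes and URA3 (chosen after its values were seen), up to 2 rises and 2 falls a list, and the 3 genes most correlated with a member. The labels describe a culture divided between both times, so a replicate number pairs the 2 times of a strain. The correlation of their deviations from the group means was -0.04 to 0.19 over 12 pairs. Across strains at 20 min, same-numbered arrays reached higher values. Replicates 1, 2 and 3 of the wild type gave 0.65, 0.27 and 0.63 with the pbf1 deletion and 0.46, 0.21 and 0.36 with the pbf2 deletion. With the double deletion they gave 0.37, 0.03 and 0.30. The pbf1 deletion gave 0.47, 0.10 and 0.44 with the pbf2 deletion and 0.36, 0.15 and 0.30 with the double deletion. The pbf2 and double deletions gave 0.20, 0.05 and 0.12. The main fit did not model the replicate number. Alternatives were 4 scalings, log2(signal + 16), both other filters, eBayes without trend, the compared groups alone, the replicate block, and each array left out.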

Additional observations from a re-analysis of the deposited data

Results flagged for a closer look

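The heat shock response of CNS1 is listed here because it differed between strains in a test of that difference. The response in the double deletion was 1.11 (log2) above that in the wild type, 1.26 above that in the pbf1 deletion and 0.83 above that in the pbf2 deletion, and all 3 values passed the adjusted threshold of limma. The response was negative in 2 of 3 cultures of the double deletion and in 3 of 3 cultures of each other strain.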

How the results depend on the processing

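Most member values kept their direction and their side of the threshold. The filters, eBayes without trend and log2(signal + 16) changed no member call, and neither did the replicate block, with each culture as a block for heat shock and response differences (10 members called in the wild type) and the number as a block for strain differences (8 called for the pbf2 deletion against the wild type at 20 min). In the authors' deposited table all 10 wild type values had a false discovery rate below 0.05.

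Spike-in centring lowered the called members to 2, 3, 4 and 3 for heat shock in the pbf1, pbf2 and double deletion and the wild type, and to 0 for the 3 response differences of the double deletion, for the double deletion at 0 min and for the pbf2 deletion at 20 min against the wild type, and to 2 for the double against the pbf2 deletion at 20 min. The spike-in controls varied within times, from 4.73 to 6.49 (log2) at 0 min and from 6.39 to 7.38 at 20 min. Under it YDJ1 turned to -0.66, -0.28, -0.56 and -0.41 and SBA1 to -0.75, -0.40, -0.66 and -0.51 in the pbf1, pbf2 and double deletion and the wild type.

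Hybridization control centring gave 1 call for the double deletion at 0 min, 2 at 20 min and 0 for the pbf2 deletion at 20 min against the wild type. Quantile normalization gave 2 for the double deletion at 20 min, 2 for the pbf2 deletion at 20 min, 2 for each response difference of the double deletion and 4 for the double against the pbf2 deletion at 20 min. It turned STI1 to 0.021 in the pbf2 deletion against the wild type, and CPR6 to -0.0053 and HCH1 to -0.0079 in the double against the pbf2 deletion. Median centring gave 3 for the response difference of the double deletion from the wild type. The compared groups alone gave 0 for the pbf2 deletion at 20 min and 2 for the response difference between the double and the pbf2 deletion. The causes were not tested.

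With 1 array left out, the count ranged from 1 to 10 for the pbf2 deletion at 20 min. It ranged from 1 to 2 for the double deletion at 0 min (1 without wild type replicate 1) and from 1 to 3 at 20 min against the wild type (2 without wild type replicate 3, 3 and 2 without double deletion replicates 1 and 3). The response difference of the double deletion gave 1 to 2 calls against the wild type (2 without its own 20 min replicate 3), 1 to 2 against the pbf1 deletion (2 without pbf1 0 min replicate 1) and 1 to 3 against the pbf2 deletion (3 without its own 20 min replicate 1, 2 without its 0 min replicate 3 or pbf2 20 min replicate 2). The 20 min levels gave 1 to 3 against the pbf1 deletion (3 without double deletion replicate 1) and 7 to 10 against the pbf2 deletion. CNS1 was called each time where it was called with all arrays, except in the pbf2 deletion at 20 min, where 2 of 6 omissions lost it. A mean over probe sets was not needed, since each member has 1.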
